A study of Mus musculus with 9 samples.

Results

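The transcription factors described here are 10 genes that direct dendritic cell development and subset identity, *Spi1*, *Irf8*, *Irf4*, *Zbtb46*, *Id2*, *Tcf4*, *Zeb2*, *Klf4*, *Relb* and *Tbx21*. They were chosen by gene symbol, and all 10 were found among the 24054 genes of the deposited tables and were tested among 14452 genes with sufficient counts. Their mRNA was measured in sorted splenic cells of C57BL/6 mice with the genotype Clec9a-Cre/Cre Rosa-tdTomato/tdTomato, in which cells that recombined the reporter through *Clec9a*-driven Cre, and their progeny, carry the fluorescent protein TOMATO (TOM). Labelling is not complete, so a TOM- cell cannot be read as one that never expressed Cre. Cre sat on both *Clec9a* alleles in all groups, adults included, and *Clec9a* drives it in cDC progenitors and cDC1. From live, single, non-autofluorescent CD11c+MHCII+CD11b+ cells, 3 libraries of young TOM+ cDC2 and 3 of young TOM- DC2 came from mice at postnatal day 8, whose spleens were pooled, and 3 of adult TOM+ cDC2 from mice of 9 weeks (replicate 1) or 8 weeks (replicates 2 and 3). Adult TOM- cells were not analysed here, so the young TOM- cells are compared with adults across age and TOMATO history at once.

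Dendritic cells arise from bone marrow progenitors under a small set of transcription factors that act together and against each other. PU.1, the product of *Spi1*, opens the programme. IRF8 is needed for cDC1 and held by plasmacytoid dendritic cells (pDC), while IRF4 and KLF4 serve cDC2, ZBTB46 marks the committed classical lineage, and ID2 restrains the E protein E2-2, the product of *Tcf4* that maintains pDC. RELB, a subunit of NF-κB, is needed for splenic cDC2, and T-bet, the product of *Tbx21*, marks an anti-inflammatory part of splenic cDC2.

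Among the 3 groups, 2 of these genes set the groups apart most. *Irf8* was 1.70-fold lower in young TOM+ cDC2 than in young TOM- DC2 and 2.14-fold lower than in adult TOM+ cDC2. *Relb* was 2.58-fold lower in young TOM+ cDC2 and 2.90-fold lower in young TOM- DC2 than in adults. *Spi1* was lower in both young groups than in adults by a smaller step, 1.38-fold and 1.49-fold. *Klf4*, *Zeb2* and *Tcf4* did not pass the unpaired test in any of the 3 comparisons, and *Klf4* differed more between replicates than between groups.

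Each library held between 12783252 and 22809401 reads assigned to a gene, and the 10 members received between 642 reads (*Irf8*) and 13786 reads (*Spi1*) in a library. Levels are given as TPM, the share of transcripts after correction for transcript length, which allows genes to be compared within a library. Differences between groups are given as log2FC, fitted to read counts with edgeR's quasi-likelihood test after TMM scaling, with the standard error (SE) and the Benjamini-Hochberg adjusted p over all tested genes (padj). A gene passed at a padj under 0.05 and was called where its log2FC was also beyond 1. The scaling raised adults relative to young libraries (TMM factors 0.894 to 0.928 against 1.02 to 1.08), so a fold from the fit is larger than the ratio of mean TPM in favour of adults. Scaled by total counts alone, the median log2FC of all tested genes moved from 0.05 to 0.25 for young TOM+ cDC2 against adults and from 0.07 to 0.29 for young TOM- DC2 against adults, and the share of called genes that were higher in young cells moved with it, from 862 of 1853 to 1245 of 1988 and from 940 of 1631 to 1414 of 1905. Replicate 1 of each young group carries the same number in the deposited names, and so do replicates 2 and replicates 3, and libraries of the same number deviated from their group means together. The study calls the libraries biological replicates, and which animals went into each is not given in the sources used here. The p-values measure the spread between these libraries.

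The cells carried the markers of their label. The 8 cDC markers summed to between 58679 and 95257 TPM, nearly all of it *Cd74* and *H2-Ab1*. Of the defining cDC genes none was at 0, with *Flt3* at 154 to 294, *Itgax* at 301 to 463 and *Itgam* at 73.0 to 168 TPM. *Clec9a*, whose alleles both carry Cre in these mice, did not exceed 0.34 TPM in any library, *Xcr1*, a cDC1 gene, did not exceed 3.79 TPM and *Siglech*, a pDC gene, did not exceed 1.32 TPM. Other genes of the cDC1 and pDC lists were higher. Among them were *Batf3* (152 to 194 TPM) and *Wdfy4* (116 to 170 TPM) for cDC1, and *Bst2* (76.7 to 140 TPM) and *Spib* (38.3 to 62.2 TPM) for pDC. The 5 NK cell markers together reached at most 0.83 TPM.

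All 10 members were transcribed in every library, and their mean levels lay between percentile 74.6 and percentile 99.6 of all 24054 genes. In young TOM+ cDC2 the order by mean TPM was *Spi1*, *Id2*, *Relb*, *Zbtb46*, *Klf4*, *Irf4*, *Tbx21*, *Zeb2*, *Irf8* and *Tcf4*. Of neighbours in that order, *Zbtb46* and *Klf4*, *Klf4* and *Irf4*, *Irf4* and *Tbx21*, *Zeb2* and *Irf8*, and *Irf8* and *Tcf4* overlapped between libraries and cannot be ranked. In young TOM- DC2 and in adults the order was the same except that *Irf8* stood above *Zeb2*, without overlap in either group. *Id2* and *Relb*, which did not overlap in young cells of either kind, overlapped in adults.

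**Figure D1:**
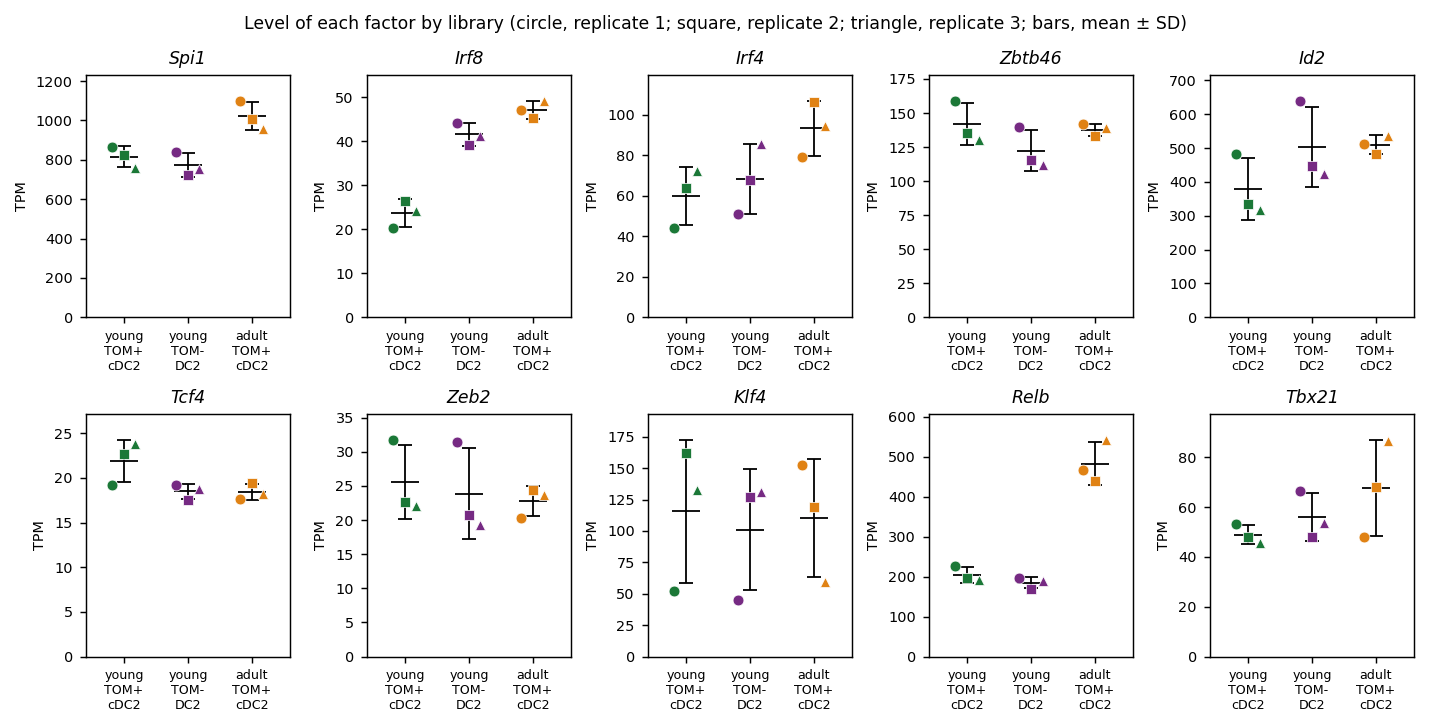
TPM (vertical axes, from 0) of the 10 transcription factors in each of the 9 libraries by group, with points for replicates 1 to 3 and bars for the mean ± SD. *Irf8* is lowest in young TOM+ cDC2 and *Relb* highest in adults without overlap, and *Klf4* spreads from 45.2 to 162 TPM with low points in every group.

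*Spi1* (chr2:91082374-91115759, GRCm38) had the highest level of the members. Replicates 1 to 3 of young TOM+ cDC2 held 865, 826 and 758 TPM, those of young TOM- DC2 840, 725 and 752 TPM, and those of adult TOM+ cDC2 1101, 1007 and 958 TPM. Every adult library was above every young library, and the young groups overlapped. The means were 816 ± 54.0, 772 ± 60.5 and 1022 ± 72.7 TPM (SD, n = 3). *Spi1* was lower in young TOM+ cDC2 than in adults (log2FC -0.47, SE 0.08, padj 0.000757) and lower in young TOM- DC2 than in adults (log2FC -0.58, SE 0.08, padj 0.000202). It passed under all 21 alternatives in each of these comparisons. Between the young groups the log2FC was 0.11 with a 95% interval from -0.07 to 0.29.

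*Irf8* (chr8:120736358-120756694) had 20.3, 26.5 and 24.2 TPM in young TOM+ cDC2, 44.2, 39.1 and 41.3 TPM in young TOM- DC2, and 47.1, 45.2 and 49.2 TPM in adults. The young TOM+ libraries lay below all others, and the highest young TOM- library lay just below the lowest adult library. The means were 23.6 ± 3.13, 41.5 ± 2.55 and 47.2 ± 2.03 TPM (SD, n = 3). Without pairing, *Irf8* was the 1 of 10 members that passed between the young groups (log2FC -0.77, SE 0.11, 95% interval -1.01 to -0.52, padj 0.00275), lower in TOM+ cells in 3 of 3 numbered pairs, and it was not called at a log2FC beyond 1. Of all tested genes, 1.47% were higher in young TOM- DC2, 0.125% higher in young TOM+ cDC2 and 1.18% called. It passed under all 22 alternatives, with a log2FC between -0.88 and -0.63. Because these are bulk samples, fewer cells with a high level and less RNA in each cell cannot be told apart.

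Marker lists of other cells were compared between the young groups beside *Irf8*, and their part in the result was not tested. Macrophage and T cell sums were higher in TOM- libraries without overlap, while B cell, neutrophil and erythroid sums overlapped. Among B cell markers 1 of 6 tested passed, *Ms4a1*, with means of 2.46 and 7.80 TPM. The B cell sum was 63.6 to 72.7 TPM in TOM+ and 72.4 to 82.9 TPM in TOM- libraries, most of it *Cd79b*. None of the 7 tested macrophage markers, 4 tested neutrophil markers and 3 tested erythroid markers passed. Their sums in TOM+ and TOM- libraries were 135 to 167 and 214 to 266 TPM for macrophages, 0.86 to 1.54 and 0.23 to 22.1 TPM for neutrophils, and 1.07 to 40.1 and 15.7 to 643 TPM for erythroid cells, where *Hba-a1* reached 444 TPM in replicate 1 of young TOM- DC2. T cell markers summed to 27.6 to 28.4 TPM in TOM+ and 38.2 to 39.8 TPM in TOM- libraries, most of it *Cd5*, with means of 25.2 and 35.3 TPM. Here too 0 of 5 passed. None of 8 tested pDC markers and none of 10 cDC1 markers, the cells known for high *Irf8*, passed between the young groups. The sums in TOM+ and TOM- libraries were 139 to 160 and 143 to 169 TPM for pDC, and 384 to 428 and 374 to 412 TPM for cDC1. In these lists *Camp* was at 0 in 7 of 9 libraries and *S100a8* in 6 of 9.

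With age, *Irf8* was lower in young TOM+ cDC2 than in adults (log2FC -1.10, SE 0.11, padj 1.4e-05) and was called, and it passed under all 21 alternatives. Its log2FC came within 1 in 4 of them, among them -0.91 with total counts alone and -0.97 without replicate 1 of young TOM+ cDC2. Young TOM- DC2 were nearer to adults (log2FC -0.34, SE 0.11, padj 0.0334), and this passed in 12 of 21 alternatives.

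*Irf4* (chr13:30749233-30766981) had 44.1, 63.7 and 72.0 TPM in young TOM+ cDC2, 51.2, 67.6 and 85.6 TPM in young TOM- DC2, and 78.9, 106 and 94.4 TPM in adults. Replicate 1 was the lowest library of each young group, and the highest young TOM- library lay within the adult range. *Irf4* was lower in young TOM+ cDC2 than in adults (log2FC -0.75, SE 0.22, padj 0.0168), and without replicate 2 of the adults its padj was 0.0727. Against adults, young TOM- DC2 had a log2FC of -0.59 (SE 0.22, padj 0.0530), which missed the threshold here and passed in 11 of 21 alternatives. Between the young groups its log2FC was -0.16, with a 95% interval from -0.63 to 0.32.

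The balance of *Irf4* to *Irf8* within a library does not depend on depth. The ratio of TPM was 2.17, 2.41 and 2.97 in young TOM+ cDC2, 1.16, 1.73 and 2.07 in young TOM- DC2, and 1.68, 2.35 and 1.92 in adults. Young TOM+ cDC2 were above young TOM- DC2 without overlap (difference of log2 ratios 0.64, exact two-sided permutation test, p = 0.1, the smallest that 3 libraries against 3 allow). Over the 15 ratio comparisons made the smallest adjusted p was 0.188, and with 3 libraries against 3 no ratio could pass a threshold of 0.05. The ratio of *Spi1* to *Irf8* separated all 3 groups, with 31.2 to 42.7 in young TOM+ cDC2, 18.2 to 19.0 in young TOM- DC2 and 19.5 to 23.4 in adults (exact permutation p = 0.1 for each pair of groups).

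**Figure D2:**
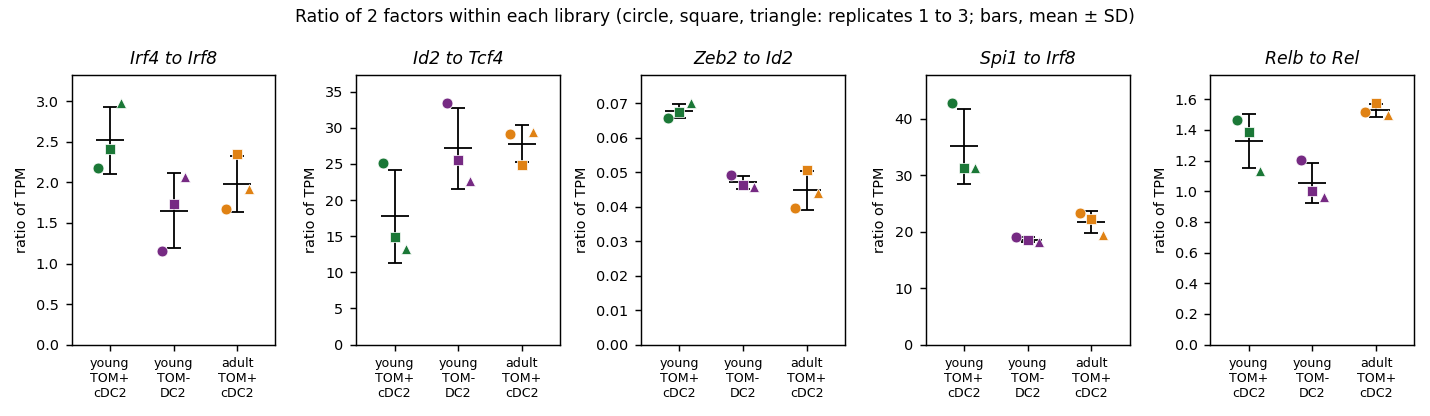
Ratio of the TPM of 2 genes within each library (vertical axes, from 0) by group, with points for replicates 1 to 3 and bars for the mean ± SD. The ratio of *Zeb2* to *Id2* lies between 0.0657 and 0.0699 in young TOM+ cDC2, above both other groups, and the ratio of *Relb* to *Rel* is highest in adults.

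*Zbtb46* (chr2:181371009-181493262) varied little between libraries, with 159, 135 and 131 TPM in young TOM+ cDC2, 139, 116 and 112 TPM in young TOM- DC2 and 142, 133 and 139 TPM in adults. It was lower in young TOM- DC2 than in adults after scaling (log2FC -0.37, SE 0.08, padj 0.00477) and not in young TOM+ cDC2 (log2FC -0.13, 95% interval -0.31 to 0.05). With total counts alone the log2FC of young TOM- DC2 was -0.14 and did not pass, and in TPM these groups overlapped. Between the young groups its log2FC was 0.23, with a 95% interval from 0.05 to 0.42 and a padj of 0.318. *Zbtb46* was also the member whose assigned transcripts varied most in length, from 2317 to 2417 bases between libraries, a range of 4.34%. Of the other members, *Zeb2* varied by 1.19%, *Tcf4* by 0.520% and *Relb* by 0.106%, and 6 had a single length in all libraries.

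*Id2* (chr12:25093799-25096092) had 483, 336 and 316 TPM in young TOM+ cDC2, 640, 448 and 423 TPM in young TOM- DC2, and 512, 482 and 537 TPM in adults. Replicate 1 was the highest of both young groups by a wide margin. *Id2* was lower in young TOM+ cDC2 than in adults (log2FC -0.59, SE 0.15, padj 0.00644), although replicate 1 of the young group lay above the lowest adult library in TPM. It passed in 18 of 21 alternatives and not with total counts alone or with limma on TPM. Young TOM- DC2 differed from adults by a log2FC of -0.20, with a 95% interval from -0.52 to 0.11.

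*Tcf4*, the gene of the E protein that ID2 restrains, had 19.2, 22.6 and 23.8 TPM in young TOM+ cDC2, 19.2, 17.6 and 18.7 TPM in young TOM- DC2 and 17.6, 19.4 and 18.2 TPM in adults. The libraries of all groups lay within a narrow range, with the highest 2 in young TOM+ cDC2. No comparison passed unpaired, and the 95% intervals were 0.04 to 0.50 between the young groups, -0.12 to 0.34 for young TOM+ cDC2 against adults and -0.38 to 0.08 for young TOM- DC2 against adults. The ratio of *Id2* to *Tcf4* was 25.1, 14.8 and 13.3 in young TOM+ cDC2, 33.4, 25.5 and 22.6 in young TOM- DC2, and 29.1, 24.9 and 29.4 in adults. The lowest 2 values belonged to young TOM+ cDC2, but replicate 1 of that group lay within the range of both others (exact permutation p = 0.2 against each).

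*Zeb2* (chr2:44983512-45117442), which supports pDC and cDC2 and represses *Id2* in dendritic cell precursors, had 31.7, 22.7 and 22.1 TPM in young TOM+ cDC2, 31.5, 20.8 and 19.3 TPM in young TOM- DC2 and 20.3, 24.4 and 23.6 TPM in adults. The high values were again replicate 1 of each young group, and no comparison passed (95% intervals -0.20 to 0.48, -0.30 to 0.38 and -0.45 to 0.24). Replicate 1 of each young group was thus high for both *Zeb2* and *Id2*. Their ratio within a library varied less than either gene in the young groups, but not in adults. The ratio was 0.0657, 0.0676 and 0.0699 in young TOM+ cDC2, 0.0492, 0.0464 and 0.0457 in young TOM- DC2, and 0.0395, 0.0507 and 0.0441 in adults. Young TOM+ cDC2 lay above both other groups without overlap (exact permutation p = 0.1 for each), and young TOM- DC2 and adults overlapped (p = 0.5).

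*Klf4* (chr4:55527137-55532475), a zinc finger factor of cDC2 and monocytes, was the least reproducible member. It had 52.2, 162 and 133 TPM in young TOM+ cDC2, 45.2, 127 and 131 TPM in young TOM- DC2 and 153, 119 and 59.6 TPM in adults. The highest library exceeded the lowest by 3.10 times, 2.90 times and 2.56 times within the groups. Replicate 1 was low in both young groups, and replicate 3 was low in adults. The 95% intervals of the log2FC were wide, from -0.81 to 1.26 between the young groups, from -1.08 to 0.99 for young TOM+ cDC2 against adults and from -1.30 to 0.76 for young TOM- DC2 against adults, so that the unpaired test shows neither a change nor its absence. Within the numbered pairs *Klf4* was higher in the young TOM+ library in 3 of 3, by 0.21, 0.35 and 0.021 on the log2 TPM scale. With the number as a replicate block it passed over the 6 young libraries (log2FC 0.24, padj 0.00524) and did not pass over all 9 libraries (log2FC 0.24, padj 0.0549). Across the 9 libraries *Klf4* ran opposite to *Zeb2* (Pearson's r = -0.85 of log2(TPM + 1), a description over libraries that share depth and handling).

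*Relb* (chr7:19606217-19629438) showed the largest difference with age. Young TOM+ cDC2 had 227, 196 and 191 TPM, young TOM- DC2 197, 169 and 189 TPM, and adults 468, 439 and 542 TPM. The lowest adult library stood at 439 TPM and the highest young one at 227 TPM. The log2FC was -1.37 (SE 0.09, padj 5.01e-07) for young TOM+ cDC2 against adults and -1.54 (SE 0.09, padj 2.51e-07) for young TOM- DC2 against adults, and *Relb* was called under all 21 alternatives of each. Between the young groups its log2FC was 0.17, with a 95% interval from -0.02 to 0.36. Set against *Rel*, which encodes c-Rel, the ratio was 1.13 to 1.47 in young TOM+ cDC2, 1.05 ± 0.129 (SD, n = 3) in young TOM- DC2 and 1.49 to 1.57 in adults, above both young groups without overlap (exact permutation p = 0.1 for each).

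*Tbx21* (chr11:97098007-97115331) had 53.1, 48.1 and 45.8 TPM in young TOM+ cDC2, 66.6, 48.1 and 53.6 TPM in young TOM- DC2 and 48.0, 68.2 and 86.7 TPM in adults. The adult libraries were spread widely, and the lowest of them lay among the young ones. *Tbx21* was lower in young TOM+ cDC2 than in adults (log2FC -0.59, SE 0.16, padj 0.0103) and in young TOM- DC2 than in adults (log2FC -0.43, SE 0.16, padj 0.0491), the latter in only 10 of 21 alternatives. Scaled by total counts alone the differences were -0.39 and -0.21 and did not pass. Between the young groups the log2FC was -0.16, with a 95% interval from -0.50 to 0.19. *Eomes*, the other T-box factor of lymphocytes, did not exceed 0.04 TPM and was not tested.

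Over the 10 members, 6 were higher in adults than in young TOM+ cDC2, 0 were lower and 2 were called, where 19.5% of all tested genes were higher in adults, 21.0% higher in young TOM+ cDC2 and 12.8% called. Their median log2FC was -0.53, beside 0.05 for all tested genes. Against young TOM- DC2, 5 of 10 were higher in adults, 0 were lower and 1 was called, where 16.9% of all tested genes were higher in adults, 19.4% higher in young TOM- DC2 and 11.3% called, with a median of -0.35 beside 0.07. Both comparisons use the same adult libraries. The members were chosen with earlier results of these data known, so these counts are a description. All tested genes include many at lower levels than the members. With an average count of at least 10, 5765 and 5219 of 11818 tested genes passed in these comparisons. With total counts alone, *Tcf4* passed as higher in young TOM+ cDC2 than in adults (log2FC 0.31), and the number of members that passed was 5 against young TOM+ cDC2 and 2 against young TOM- DC2, *Relb* and *Spi1*. Under that scaling 6618 and 6478 of 14452 tested genes passed in these 2 comparisons, in place of 5861 and 5247.

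**Figure D3:**
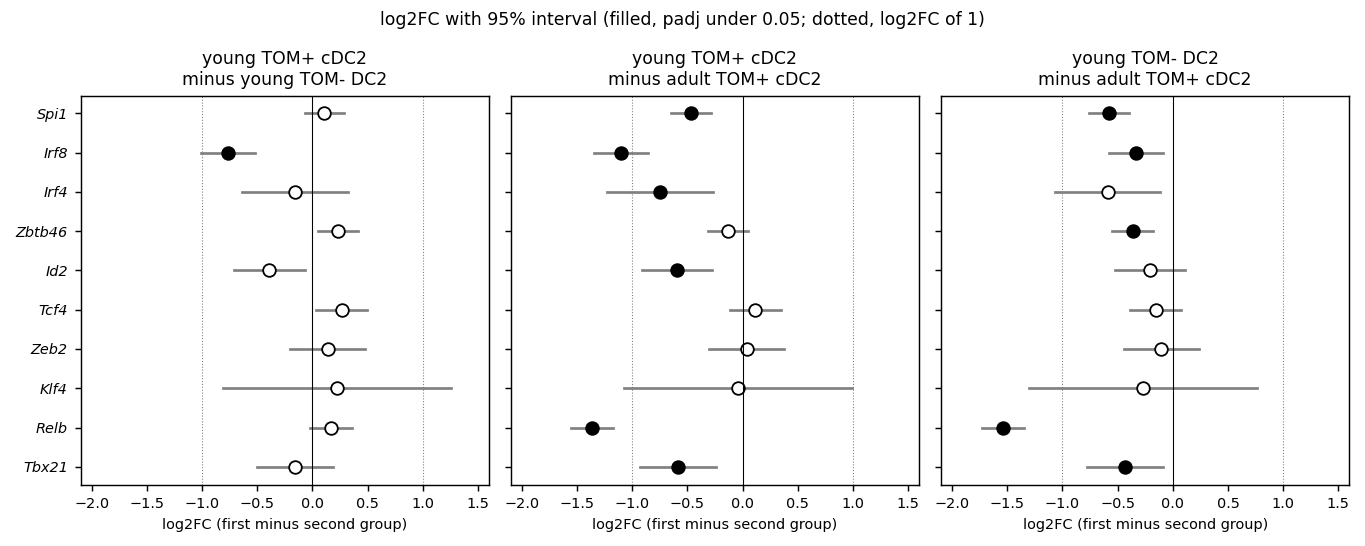
Fitted log2FC (horizontal axes, first minus second group) of the 10 members in the 3 comparisons, with 95% intervals and filled points at a padj under 0.05. *Irf8* is the filled point between the young groups at -0.77, and against adults *Relb* lies farthest to the left at -1.37 and -1.54.

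Markers of other states of cDC2 moved with age beside *Relb*, *Irf8* and *Irf4*, and their part in these results was not tested. Between young TOM+ cDC2 and adults, 19.5% of all tested genes were higher in adults and 21.0% higher in young TOM+ cDC2. Of the 7 mature DC markers, 4 were higher in adults than in young TOM+ cDC2 and 1, *Ccl17*, was lower, and the sum was 524 to 576 TPM in young TOM+ cDC2, 603 to 754 TPM in young TOM- DC2 and 1943 to 2984 TPM in adults, most of it *Ccr7*, the receptor that guides dendritic cells to lymph nodes. *Fscn1* and *Ccl22* of that list did not pass between young TOM+ cDC2 and adults. Of the 5 ESAMhigh cDC2 markers, 4 were higher in adults (*Esam*, *Cd4*, *Clec4a4* and *Dtx1*), with sums of 298 to 399, 365 to 466 and 737 to 764 TPM in the order of groups above. The 7 ESAMlow markers had 3 members higher in young TOM+ cDC2 and 3 higher in adults, with overlapping sums of 1757 to 2603, 1850 to 3090 and 1879 to 2374 TPM.

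The numbered pairs of young libraries gave a closer view of the difference between TOM+ and TOM- cells. *Id2* was higher in the TOM- library of each pair by nearly the same factor, 1.33-fold in pair 1 and pair 2 (640 against 483 and 448 against 336 TPM) and 1.34-fold in pair 3 (423 against 316 TPM). Unpaired, this difference did not pass (log2FC -0.39, padj 0.352), nor did it without pair 1, which stood far above the others. With the number as a replicate block it passed, with a log2FC of -0.39 and a padj of 0.000101 over all 9 libraries. *Zbtb46* was higher in the TOM+ library of each pair, by 0.19, 0.22 and 0.22 on the log2 TPM scale, and passed with the block (log2FC 0.23, padj 0.00995). *Tcf4* also passed with the block (log2FC 0.26, padj 0.0340), although its libraries of pair 1 were level at 19.2 TPM. In all, 4 members passed with the block over 9 libraries in place of 1, where 949 of 14452 tested genes passed in place of 231. With the block over the 6 young libraries alone 1735 of 14654 tested genes passed. Among them were 7 members, the added ones being *Klf4* (padj 0.00524), *Relb* (padj 0.0158) and *Irf4* (padj 0.0311). The log2FC of these 3 were 0.24, 0.17 and -0.16.

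**Figure D4:**
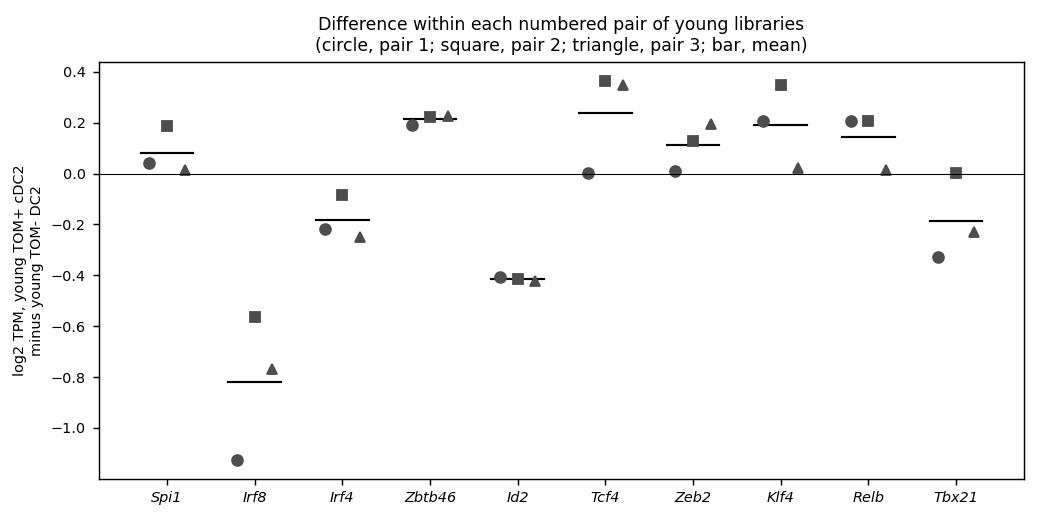
Difference of log2 TPM between young TOM+ cDC2 and young TOM- DC2 (vertical axis) within each of the 3 numbered pairs, by gene, with a bar at the mean of the pairs. The 3 points of *Id2* coincide near -0.41 and those of *Zbtb46* near 0.21, while *Irf8* is lowest and spreads from -1.13 to -0.56.

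Replicate 1 stood apart in both young groups. It was the highest library of its group for 6 members (*Spi1*, *Zbtb46*, *Id2*, *Relb*, *Zeb2* and *Tbx21*) and the lowest for 2 (*Irf4* and *Klf4*), in both groups alike. Without replicate 1 of both young groups *Irf8* remained the only member to pass between them, 6 members still passed between young TOM+ cDC2 and adults, and 8 in place of 5 passed between young TOM- DC2 and adults, with *Id2* (padj 0.00518), *Irf4* (padj 0.0259) and *Zeb2* (padj 0.0263) added. Of 14312 genes tested in that setting, 5792 passed between young TOM+ cDC2 and adults and 5330 between young TOM- DC2 and adults.

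The sequences before the transcription starts of the 4 members with a RefSeq promoter window that were higher in adults than in young TOM+ cDC2 are shown, since these genes moved in the same direction. Windows were found for 7 of the 9 members whose sequence was looked up. *Spi1* and *Relb* had none, so the motif search below did not cover them. Each sequence is the 250 bases upstream of a start in GRCm38.p6, on the strand of the gene, with matches to the searched motifs in capitals. *Irf8* has 2 annotated starts, at chr8:120736108-120736357 and chr8:120738389-120738638 on the plus strand, *Irf4* lies at chr13:30748983-30749232 on the plus strand, *Id2* at chr12:25096093-25096342 on the minus strand and *Tbx21* at chr11:97115332-97115581 on the minus strand.
Irf8, first start: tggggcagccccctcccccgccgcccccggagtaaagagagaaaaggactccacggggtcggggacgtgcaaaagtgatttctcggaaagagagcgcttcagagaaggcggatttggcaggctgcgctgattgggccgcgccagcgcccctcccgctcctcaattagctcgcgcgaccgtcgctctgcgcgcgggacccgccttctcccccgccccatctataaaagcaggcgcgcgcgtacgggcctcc
Irf8, second start: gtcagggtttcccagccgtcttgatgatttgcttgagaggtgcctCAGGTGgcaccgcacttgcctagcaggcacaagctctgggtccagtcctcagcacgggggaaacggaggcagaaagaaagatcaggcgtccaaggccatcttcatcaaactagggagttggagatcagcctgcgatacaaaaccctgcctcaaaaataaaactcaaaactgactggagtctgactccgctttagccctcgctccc
Irf4: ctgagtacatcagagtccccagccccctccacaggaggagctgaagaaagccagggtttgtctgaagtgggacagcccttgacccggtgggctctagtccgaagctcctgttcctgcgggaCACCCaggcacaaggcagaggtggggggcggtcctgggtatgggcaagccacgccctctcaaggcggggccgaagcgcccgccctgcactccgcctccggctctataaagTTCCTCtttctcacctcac
Id2: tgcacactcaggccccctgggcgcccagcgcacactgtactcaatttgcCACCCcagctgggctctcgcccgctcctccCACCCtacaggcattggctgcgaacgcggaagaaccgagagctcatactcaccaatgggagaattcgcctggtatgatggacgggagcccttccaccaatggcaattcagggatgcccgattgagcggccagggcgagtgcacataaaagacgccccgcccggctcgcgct
Tbx21: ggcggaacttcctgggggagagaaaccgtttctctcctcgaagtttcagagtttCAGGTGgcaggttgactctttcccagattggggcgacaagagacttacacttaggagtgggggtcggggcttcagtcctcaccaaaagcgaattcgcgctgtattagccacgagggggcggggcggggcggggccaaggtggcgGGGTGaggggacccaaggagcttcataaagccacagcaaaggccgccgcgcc

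On both strands of the 300-base windows, which reach 50 bases past the start, 8 motifs were searched. The E-box CAGGTG was found in 3 of 11 member windows, before the second start of *Irf8* and in the windows of *Tbx21* and *Zbtb46*. Of all 32851 windows 20.2% hold it. The KLF box GGGTG was present in 6 of 11 member windows, from 5 members, *Irf4*, *Id2*, *Tbx21*, *Zbtb46* and *Zeb2*, and in 57.5% of all windows. *Irf4* and *Zeb2* held the PU box GAGGAA (5 of 11 member windows, 28.3% of all windows). *Zbtb46* and *Zeb2* held the AP-1 site TGANTCA (2 of 11 member windows, 7.81% of all windows). No member window held the interferon-response element GAAANNGAA (8.56% of all windows), the ETS-IRF composite element GGAANNGAA (8.24%), the NF-κB site GGANTTTCC (1.25%) or the T-box site TCACACCT (1.28%). The *Zbtb46* window (chr2:181424339-181424638) and the *Zeb2* window with the AP-1 sites (chr2:45110228-45110527) belong to starts inside the annotated genes. The matches in the printed sequences do not overlap each other, and all matches describe letters in these windows only.

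The wider families give the setting of these members. Of the 9 interferon regulatory factors, 7 were higher in adults than in young TOM+ cDC2, and *Irf5*, known from inflammatory cytokine induction, was slightly lower in adults (log2FC 0.25, padj 0.0417, not passing with DESeq2 size factors). The shares of all tested genes were 19.5% higher in adults and 21.0% higher in young TOM+ cDC2. *Irf7*, the amplifier of type I interferon production, changed most, from 44.4 ± 5.87 TPM in young TOM+ cDC2 and 45.3 ± 8.20 TPM in young TOM- DC2 to 170.3 ± 14.4 TPM in adults (SD, n = 3, log2FC -2.08, SE 0.12 in each comparison). *Irf1* and *Irf9* differed from adults by log2FC of -0.98 and -0.96 in young TOM+ cDC2. Between young TOM- DC2 and adults 6 of 9 were higher in adults, where 16.9% of all tested genes were. With total counts alone 4 of 9 were higher in adults, where 6478 of 14452 tested genes passed in either direction, in place of 5247. Between the young groups *Irf8* was the 1 of 9 that passed.

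All 5 subunits of the NF-κB family were higher in adults than in either young group, and *Relb* and *Rel* were called in both. Against young TOM+ cDC2, 19.5% of all tested genes were higher in adults and 12.8% were called. Against young TOM- DC2 these shares were 16.9% and 11.3%. *Rel* went from 155 ± 13.4 and 176 ± 17.7 TPM in young TOM+ and TOM- cells to 317 ± 42.5 TPM in adults (SD, n = 3, log2FC -1.17 and -1.01). *Nfkb2*, whose product p52 partners RELB, differed least, with a log2FC of -0.31 (padj 0.00771) in young TOM+ cDC2, and did not pass in either comparison with total counts alone. The median of the 5 was -0.53 for young TOM+ cDC2 and -0.63 for young TOM- DC2.

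Among E proteins and their Id inhibitors, *Tcf3* and *Tcf12*, the E protein genes beside *Tcf4*, were both higher in young cells. *Tcf3* had 59.6 ± 3.76, 50.2 ± 5.47 and 29.9 ± 2.12 TPM in the 3 groups (log2FC 0.86 and 0.59 against adults) and *Tcf12* 13.5 ± 1.52, 14.2 ± 1.58 and 7.73 ± 0.889 TPM. *Id1* was higher in young cells as well (log2FC 2.12 and 1.94) but low, with no library above 6.40 TPM. *Id2* was the 1 of 7 genes of this family that was higher in adults than in young TOM+ cDC2, where 19.5% of all tested genes were. With total counts alone *Id2* did not pass. Of the relatives of PU.1, *Spic*, the factor of red pulp macrophages, was higher in both young groups than in adults (log2FC 0.58 and 1.11) and *Spib* did not pass, except as higher in young TOM+ cDC2 with total counts alone. The other ZEB factor, *Zeb1*, did not pass in any comparison.

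A further list of 54 transcription factors with roles in dendritic cells was examined, of which 53 were tested. Against adults, 25 of 53 were lower and 13 higher in young TOM+ cDC2, where 19.5% of all tested genes were lower and 21.0% higher. In young TOM- DC2 25 were lower and 12 higher, where 16.9% of all tested genes were lower and 19.4% higher. The median log2FC were -0.26 and -0.29 beside 0.05 and 0.07 for all tested genes. With total counts alone the counts of this list became 21 and 17 in young TOM+ cDC2 and 19 and 17 in young TOM- DC2. All tested genes that passed in either direction then numbered 6618 and 6478 of 14452, in place of 5861 and 5247. The largest called differences from adults in young TOM+ cDC2 were those of *Ikzf3*, which encodes Aiolos (log2FC -3.68, with a mean of 4.85 TPM in adults), *Id1* (2.12), *Nr4a3*, a nuclear receptor of migratory dendritic cells (-2.08), *Irf7* (-2.08), *Maf* (1.86, with no library above 0.78 TPM in these 2 groups), *Bcl6* (-1.57), *Etv3* (-1.31) and *Rel* (-1.17). In young TOM- DC2, genes called as higher than in adults included *Maf* (log2FC 2.84), *Id1* (1.94), *Myb* (1.19) and *Spic* (1.11).

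The genes whose levels across the 9 libraries were most like those of each member that passed were taken from 7648 genes with a mean of at least 10 TPM, by Pearson's r of log2(TPM + 1), as a description over libraries that share depth, age and preparation. *Spi1* was followed by *Mllt4* (r = 0.997), *Slfn5* and *Zfp366*, and *Relb* by *Gpm6b* (r = 0.991), *Bmp2* and *Tbc1d8*. *Irf8* was followed by *Serpinb6b* (r = 0.951), *Mmp9* and *Prr13*, of which *Mmp9* had means of 0.183 TPM in young TOM+ cDC2, 11.8 TPM in young TOM- DC2 and 63.4 TPM in adults. *Irf4* ran with *Nr4a2* (r = 0.981), *Arih2* and *Gadd45b*, and *Id2* with *Dnajc1* (r = 0.967), *Mycbp2* and *Stard7*. *Tbx21* ran with *Sdf4* (r = 0.958), *Fam32a* and *Dgka*, and *Zbtb46* with *March1* (r = 0.929), *Oxsr1* and *Eif4b*. Among the members themselves *Spi1* and *Relb* were the most alike (r = 0.91).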

How the data were processed

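mRNA of 9 sorted samples in 3 groups of 3 was sequenced as single-end reads from SMART-seq cDNA, and groups were taken from the sample labels. Reads were mapped to mm10 by the authors with STAR, who deposited raw read counts per gene, of which the unstranded column was used. The authors also deposited RSEM expected counts, TPM, FPKM and the abundance-weighted transcript length (in bases) of each gene. STAR's 4 summary lines, 26.1% to 31.6% of all reads, were left out of library sizes. As counting used no strand, antisense and overlapping genes are uncertain.

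Counts of all 9 libraries were fitted in R 4.3.3 with edgeR 4.0.16 (quasi-likelihood test, TMM, average count of at least 1, Benjamini-Hochberg adjustment), the filter and thresholds following the study's methods. No 2 libraries were copies of each other. Ratios were compared with exact two-sided permutation tests in scipy. Alternatives used DESeq2 1.42.0, limma 3.58.1 with pseudocounts of 1 or 0.1, other scalings and filters, expected counts rounded to whole numbers, FPKM, left-out libraries and a replicate block. The numbers in the deposited names paired the young libraries: deviations from group means correlated at 0.681, 0.404 and 0.461 within pairs over 11062 genes. The number of adult libraries did not pair with young ones (0.126 and -0.027). The count and TPM tests were tested on simulated data.

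The members and gene lists were chosen with earlier results of these data known. Named are all members, of each list the called genes (at most 8, by size), defining markers and the most similar genes. Gene positions and promoter windows are from RefSeq tables of GRCm38.p6, and sequence was not looked up for *Tcf4*. Other assays of the study were not used here. A few genes of the lists are not reported here.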

Additional observations from a re-analysis of the deposited data

How the results depend on the processing

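Of the values of log2FC for single members under settings other than a single left-out library, 310 kept their direction and side of the threshold, 19 changed sign, 24 came to pass and 17 ceased to pass. With total counts alone, the log2FC became 0.067 (*Zbtb46*) and 0.15 (*Klf4*) for young TOM+ cDC2 against adults, and 0.020 (*Id2*), 0.12 (*Zeb2*) and 0.068 (*Tcf4*) for young TOM- DC2 against adults. With limma on log2(TPM + 1) or log2(TPM + 0.1) it became 0.035 in both for *Zbtb46* and 0.018 in both for *Klf4* in young TOM+ cDC2, and 0.037 in both for *Zeb2* and 0.0068 and 0.0072 for *Tcf4* in young TOM- DC2. RSEM counts gave -0.016 for *Zeb2* in young TOM+ cDC2. No value that changed sign had passed the test, and the cause was not tested. Genes called by limma on log2(TPM + 1) numbered 1122 and 986 against adults, in place of 1853 and 1631. Members that passed between young TOM- DC2 and adults numbered 2 with total counts alone or with limma at either pseudocount, in place of 5. Of 14452 tested genes 6478 passed there with total counts alone, and 5915 and 5931 with limma at pseudocounts of 1 and 0.1, in place of 5247.

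With the replicate block over all 9 libraries, genes called between the young groups numbered 274 in place of 170 and members that passed 4 in place of 1, and over the 6 young libraries 341 and 7. All genes that passed numbered 949 of 14452 and 1735 of 14654 with these blocks, in place of 231 of 14452. The block over 9 libraries, in which the adult numbers did not pair, gave 9 passing members for young TOM- DC2 against adults, and 0.015 for *Klf4* and -0.13 for *Zeb2* in young TOM+ cDC2. Between young TOM- DC2 and adults 6541 of 14452 tested genes passed with this block, in place of 5247. Without replicate 1 of both young groups, chosen after seeing the data, 8 members and 5330 of 14312 tested genes passed for young TOM- DC2 against adults. The log2FC against adults became 0.30 (*Klf4*) and -0.13 (*Zeb2*) in young TOM+ cDC2 and 0.087 (*Klf4*) in young TOM- DC2.

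Leaving out single libraries gave 3 to 6 passing members for young TOM- DC2 against adults, with 3 without young TOM- replicate 2, adult replicate 2 or adult replicate 3. All genes that passed in that comparison then numbered from 4261 to 5371. Single-library ranges that crossed 0 were -0.35 to 0.054 (*Irf4*), -0.15 to 0.58 (*Klf4*) and -0.0055 to 0.34 (*Zeb2*) between the young groups, -0.37 to 0.32 (*Klf4*) and -0.11 to 0.11 (*Zeb2*) for young TOM+ cDC2 against adults, and -0.59 to 0.10 (*Klf4*) for young TOM- DC2 against adults. The log2 ratio differences between young TOM- DC2 and adults ranged from -0.21 to 0.074 (*Id2* to *Tcf4*) and from -0.0071 to 0.17 (*Zeb2* to *Id2*). Levels in FPKM in place of TPM, and ratios of STAR counts, moved by less than the spread between replicates. Of the 21 most similar genes, 21 remained with a pseudocount of 0.1 and 15 with genes of at least 1 TPM admitted. With 3 libraries a group and no pairing, differences between groups in *Klf4* cannot be told from those between its replicates.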
